A study of Mus musculus with 8 samples.

Results

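The 10 genes described here encode ligands of the epidermal growth factor (EGF) family and receptors of the ERBB family. They were taken by symbol, from a set of names, out of 36333 genes measured in the mouse ventral prostate. The set was chosen with earlier results of these data known. The ligands were Egf, Areg, Ereg, Btc, Hbegf, Tgfa and Nrg4, and the receptors were Egfr, Erbb2 and Erbb3. RNA was sequenced from the ventral lobes of 4 hSKP2-KI and 4 wild-type (WT) mice, with 1 library per mouse. All were FVB/N mice 12 months old. In hSKP2-KI mice the human SKP2 coding sequence had been placed in exon 1 of the endogenous probasin gene (Pbsn) with CRISPR/Cas9, so that the probasin promoter, which is active in prostate epithelium, drives it. The knock-in allele therefore alters the probasin gene itself, and WT mice carry neither change. Several knock-in lines were made, and the line behind these libraries is not given in the sources used here.

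EGF family ligands are made as membrane-anchored precursors and are released by proteases of the ADAM family. EGF, transforming growth factor alpha (Tgfa), amphiregulin (Areg), epiregulin (Ereg), betacellulin (Btc) and heparin-binding EGF-like growth factor (Hbegf) bind EGFR, whereas neuregulin 4 (Nrg4) binds ERBB4. Bound receptors pair with each other. ERBB2 has no known ligand and serves as the preferred partner, and ERBB3 has little kinase activity of its own but recruits PI3 kinase. In the prostate, epithelial cells secrete EGF into the gland lumen, and its transcript is known to depend on androgen.

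Levels are given in TPM, the authors' unit of transcript abundance, which is corrected for transcript length, so that genes can be compared, and has the same total in every sample. Differences are log2 fold changes of TPM + 1, hSKP2-KI minus WT, from limma. The fit covered 13080 genes that reached 1 TPM in 4 or more of the 8 samples, and adjusted p-values are Benjamini-Hochberg values over all of them. Skp2 was between 37.3 and 60.6 TPM in hSKP2-KI and between 1.05 and 2.27 in WT mice, and Pbsn was between 93.0 and 174 against between 3980 and 9232, so each library matched its label. The secretory genes Sbp, Spink1 and Sbpl, which mark the ventral lobe, together took 43.1% ± 2.48 (SD, n = 4) of the TPM in WT and 32.9% ± 1.01 (SD, n = 4) in hSKP2-KI prostates. Because TPM has a fixed total, this moves the other genes up in hSKP2-KI samples, and over all tested genes the median log2 difference was 0.23. The limma results of the members and most list counts are therefore also given after median-ratio scaling. This sets the typical gene equal between samples and brought that median to -0.01. Exact permutation p-values, profile distances and most statements of overlap are given on the deposited scale only. Because this is bulk tissue, fewer cells of a type and less RNA per cell cannot be told apart.

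Of the 10 genes, 7 could be tested. Egf fell, Tgfa and Egfr rose, and Hbegf, Nrg4, Erbb2 and Erbb3 did not pass the test. The 3 called genes compare with 33.9% of all tested genes called in either direction, the 2 that rose with 32.7% of all tested genes called higher, and the 1 that fell with 1.23% called lower. After median-ratio scaling Egf alone was called, beside 11.2% of all tested genes called in either direction, 4.25% lower and 6.92% higher. Of the other 6 genes, 0 had an unadjusted limma p under 0.05, a threshold at which no share of all genes is given here. Areg, Ereg and Btc were too low for the filter. The median log2 fold change of the 7 genes was 0.10 on the deposited scale and -0.07 after scaling.

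**Figure D1:**
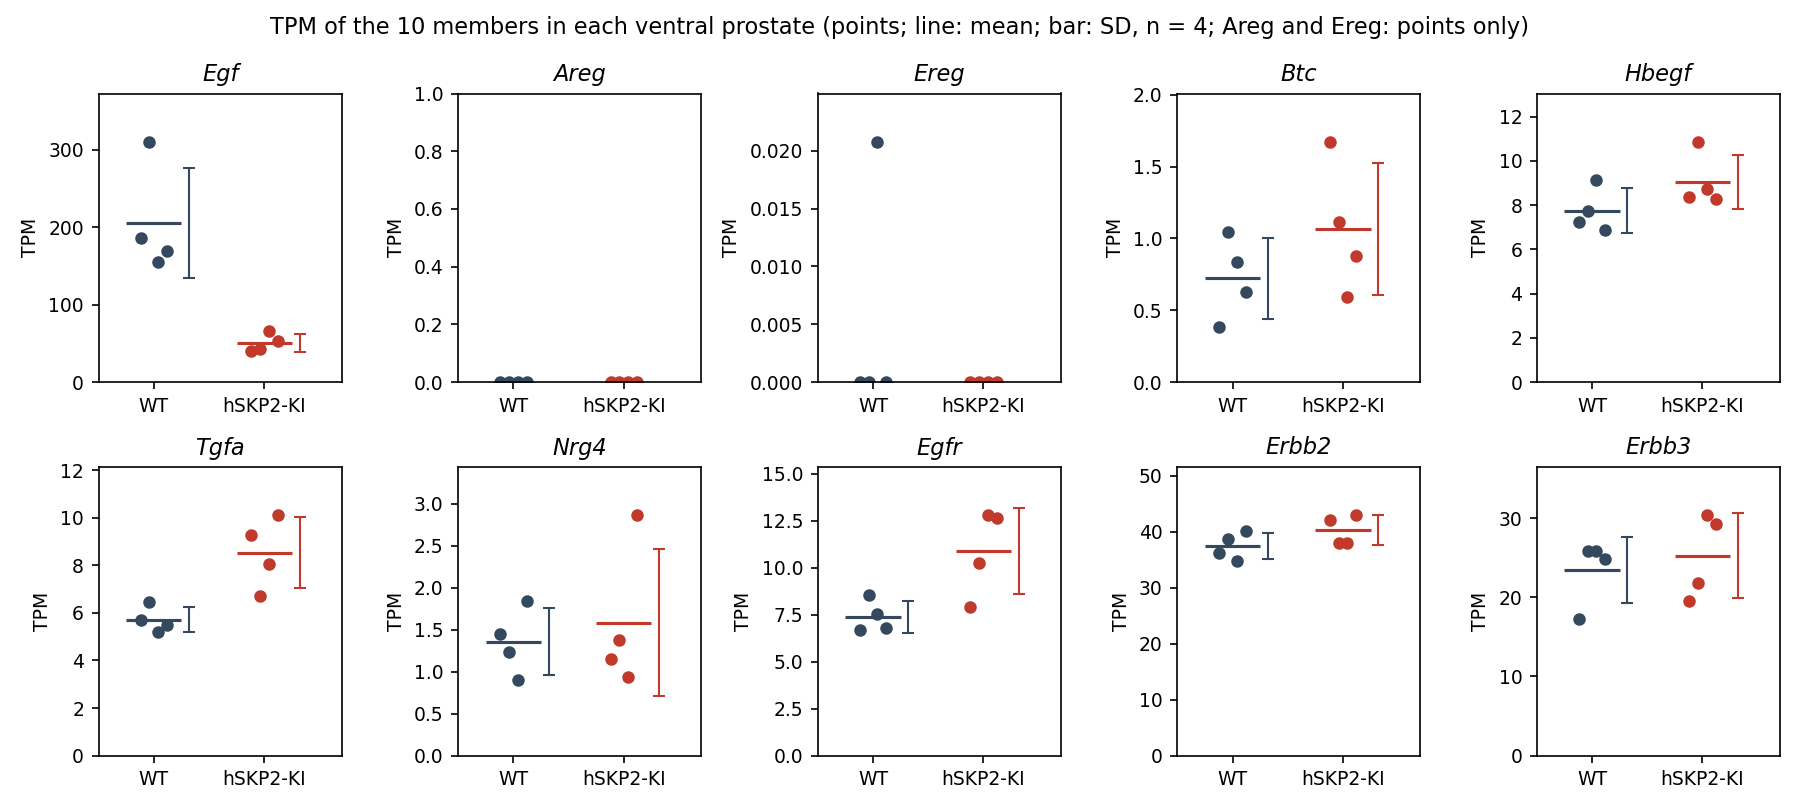
TPM (vertical axes, each from 0) of the 10 genes in 4 WT and 4 hSKP2-KI ventral prostates. Points are mice, horizontal lines are means and bars are SD (n = 4; points only for Areg and Ereg). The Egf points of hSKP2-KI mice lie between 40.9 and 65.6 TPM, all below the WT points, and the Tgfa points all lie above those of WT mice.

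In WT prostates Egf was the most abundant of the 10 transcripts, at 205 ± 71.4 TPM (SD, n = 4), followed by Erbb2 at 37.4 ± 2.39 and Erbb3 at 23.5 ± 4.13. Hbegf and Egfr came next with ranges that overlapped, then Tgfa, and then Nrg4 and Btc, which overlapped as well. In hSKP2-KI prostates Egf and Erbb2 were no longer separated, since the Egf values from 40.9 to 65.6 TPM overlapped in part with the Erbb2 values from 37.9 to 43.0. Erbb3 stayed below both. Egfr, Hbegf and Tgfa formed a group in which neighbours overlapped.

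Egf (Entrez 13645; GRCm38, chromosome 3, 129677574 to 129755322) had TPM values of 186, 311, 156 and 169 in WT replicates 1 to 4. In hSKP2-KI replicates 1 to 4 it had 40.9, 42.3, 65.6 and 52.7 TPM. WT replicate 2 was the highest of all, and the highest hSKP2-KI mouse lay far below the lowest WT mouse. The mean fell to 50.3 ± 11.4 TPM (SD, n = 4), and the WT mean was 4.08 times the hSKP2-KI mean. The log2 fold change was -1.98 (standard error 0.21, 95% interval -2.44 to -1.51, adjusted p = 0.000422 by limma) and -2.24 after median-ratio scaling (95% interval -2.69 to -1.80, adjusted p = 0.000339). Groups without overlap in this direction were found for 1.03% of all tested genes. Egf had the 14th largest fall among the 13080 genes, and by mean TPM it went from rank 375 in WT to rank 2248 in hSKP2-KI prostates. In each of 25 alternative fits Egf was called lower, with log2 fold changes from -2.38 to -1.76. The antisense transcript 6330410L21Rik, which shares 500 of the 11275 exon bases of Egf, did not exceed 0.196 TPM in any sample. The counting is not stated to use strand.

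The transcripts whose profile over the 8 samples was closest to that of Egf also fell in hSKP2-KI mice. Closeness was the root mean square distance between mean-centred log2(TPM + 1) values, and Mme, which encodes the peptidase neprilysin, was nearest at 0.22, with a mean of 419 TPM in WT and 96.9 in hSKP2-KI prostates. It was followed by Olfml3, a secreted olfactomedin-like protein, at 0.30, and by the uncharacterised genes Gm36673 at 0.31 and Gm36193 at 0.38. Unc5a, a netrin receptor, was the fifth at 0.38. Their log2 fold changes were -2.08 for Mme, -1.65 for Olfml3, -1.82 for Gm36673, -1.45 for Gm36193 and -1.59 for Unc5a. As they were selected by likeness to Egf, these values are a description.

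Tgfa (Entrez 21802; chromosome 6, 86195038 to 86275744) is a second EGFR ligand of epithelial cells. It had 5.72, 6.44, 5.20 and 5.50 TPM in WT replicates 1 to 4 and 9.26, 6.70, 8.05 and 10.1 TPM in hSKP2-KI replicates 1 to 4. The genotypes did not overlap, although hSKP2-KI replicate 2 lay close to WT replicate 2, and 34.0% of all tested genes were higher without overlap. The mean was 5.71 ± 0.530 TPM in WT and 8.53 ± 1.48 in hSKP2-KI prostates (SD, n = 4). The log2 fold change was 0.49 (standard error 0.13, 95% interval 0.21 to 0.78, adjusted p = 0.0156 by limma). This call was lost after median-ratio scaling, where the value was 0.26 (95% interval -0.01 to 0.53, adjusted p = 0.191).

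The nearest profiles to Tgfa were those of Ppid, a peptidyl-prolyl isomerase, at a distance of 0.088, Nasp, a histone chaperone, at 0.089, Rarg, a retinoic acid receptor, at 0.090, Tmem40 at 0.096 and Pigh, an enzyme subunit of GPI-anchor synthesis, at 0.097. Their log2 fold changes lay between 0.38 for Nasp and 0.62 for Tmem40. These genes, too, were selected by their likeness.

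Hbegf (Entrez 15200) had 7.22, 7.74, 9.15 and 6.86 TPM in WT replicates 1 to 4 and 8.37, 10.9, 8.71 and 8.25 TPM in hSKP2-KI replicates 1 to 4. The genotypes overlapped, with WT replicate 3 above 3 of the 4 hSKP2-KI mice. The log2 fold change was 0.20 (95% interval -0.06 to 0.46, adjusted p = 0.192 by limma) and -0.04 after scaling. Its direction thus depended on the scaling.

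Btc (Entrez 12223) was near the lower limit of the filter, with 0.382, 1.04, 0.837 and 0.630 TPM in WT and 1.67, 1.12, 0.595 and 0.878 TPM in hSKP2-KI replicates 1 to 4. The groups overlapped, and hSKP2-KI replicates 1 and 2 were above all WT mice. The difference of mean log2(TPM + 1) was 0.25 (exact permutation p = 0.229, two-sided; 0.533 adjusted over 7 genes under the filter). With 4 mice in each group, 0.0286 is the smallest p this test can give.

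Ereg (Entrez 13874) was listed at 0 in 7 samples and at 0.0208 TPM in WT replicate 3. Areg (Entrez 11839) was listed at 0 in all 8. The 5 mitochondrial genes checked, which every cell transcribes, were also listed at 0 throughout, so such an entry does not show that a transcript was absent. In the GRCm38 annotation Ereg (91074617 to 91093649), Areg (91139599 to 91148432) and Btc (91357261 to 91402994) lie in this order on chromosome 5, after Epgn (91027517 to 91035212), another EGFR ligand gene that reached 0.152 TPM at most.

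Nrg4 (Entrez 83961; chromosome 9, 55220222 to 55283654), the ERBB4 ligand, had 1.45, 1.23, 0.906 and 1.84 TPM in WT replicates 1 to 4. In hSKP2-KI mice it had 1.15, 1.38, 0.933 and 2.86 TPM. Replicate 4 was the highest of each genotype, and the ranges overlapped almost entirely. Its log2 fold change was 0.09 (95% interval -0.38 to 0.57, adjusted p = 0.74 by limma) and -0.07 after scaling. Of its 6075 exon bases 368 are shared with Fbxo22 on the opposite strand, which had 11.9 to 15.2 TPM, so reads of these genes cannot be told apart there.

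Among the receptors, Egfr (Entrez 13649; chromosome 11, 16752203 to 16913907) had 6.67, 8.53, 7.54 and 6.77 TPM in WT replicates 1 to 4. In hSKP2-KI replicates 1 to 4 it had 7.91, 10.2, 12.8 and 12.6 TPM. Replicates 2 to 4 of hSKP2-KI were above every WT mouse, and hSKP2-KI replicate 1 lay within the WT range. The mean was 7.38 ± 0.863 TPM in WT and 10.9 ± 2.31 in hSKP2-KI prostates (SD, n = 4), and the log2 fold change was 0.49 (standard error 0.15, 95% interval 0.17 to 0.81, adjusted p = 0.028 by limma). After median-ratio scaling it was 0.25 (95% interval -0.04 to 0.54, adjusted p = 0.256). The call was also lost without a filter on low values (limma adjusted p = 0.0646) and when hSKP2-KI replicate 3 or 4 or WT replicate 1, 3 or 4 was left out, with limma adjusted p-values of 0.0698, 0.0752, 0.0684, 0.0557 and 0.0647 in that order.

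Erbb2 (Entrez 13866; chromosome 11, 98412484 to 98437716) was the most abundant receptor transcript, with 36.3, 38.6, 34.7 and 40.1 TPM in WT and 42.2, 37.9, 38.0 and 43.0 TPM in hSKP2-KI replicates 1 to 4. The ranges overlapped. On the log2 scale the difference was 0.10 (95% interval -0.07 to 0.28, adjusted p = 0.31 by limma) on the deposited scale and -0.16 after scaling (95% interval -0.32 to 0.00, adjusted p = 0.189), so that its direction changed.

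Erbb3 (Entrez 13867; chromosome 10, 128567523 to 128589635) had 17.3, 25.8, 25.9 and 24.8 TPM in WT and 19.6, 21.8, 30.4 and 29.3 TPM in hSKP2-KI replicates 1 to 4. WT replicate 1 was the lowest of all samples, and replicates 1 and 2 of hSKP2-KI lay below the other 3 WT mice. Its log2 fold change was 0.10 (95% interval -0.27 to 0.46, adjusted p = 0.644 by limma) and -0.16 after scaling. Without WT replicate 1 it was -0.04.

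**Figure D2:**
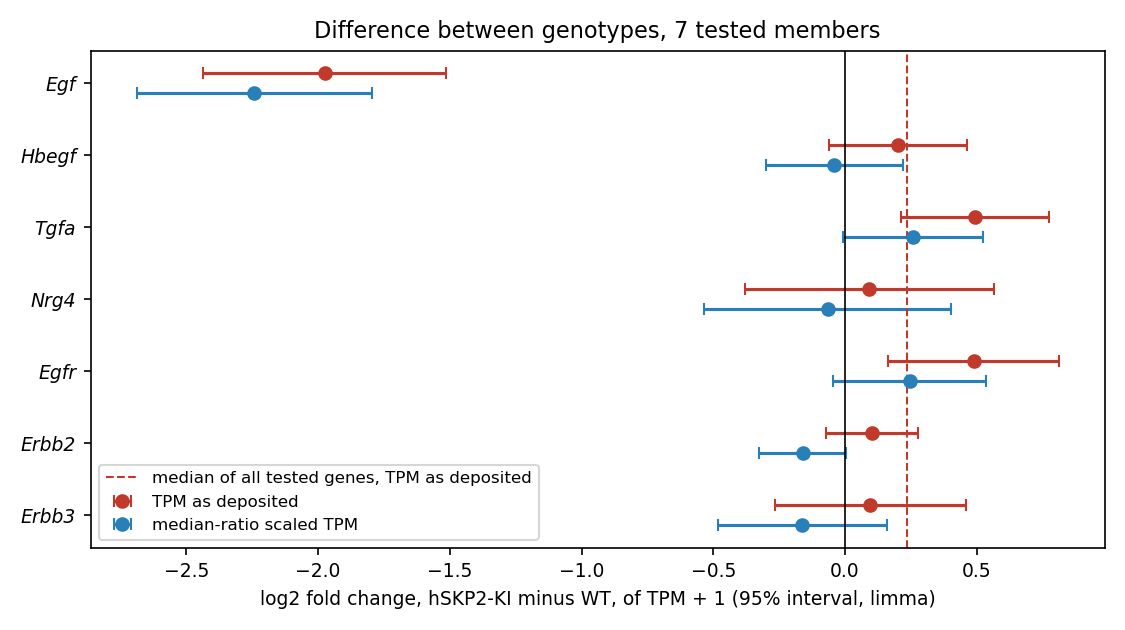
Log2 fold change of TPM + 1, hSKP2-KI minus WT (horizontal axis), of the 7 tested genes with 95% intervals from limma, on TPM as deposited (red) and after median-ratio scaling (blue); the dashed line is the median of all tested genes, 0.23. Egf lies at -1.98 and -2.24, and after scaling the intervals of the other 6 genes reach or cross 0.

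Within each sample, the make-up of the EGFR ligand transcripts does not depend on the scaling. Egf made up 93.3, 95.3, 91.1 and 92.9% of the summed TPM of the 6 EGFR ligands in WT replicates 1 to 4. In hSKP2-KI replicates 1 to 4 it made up 67.9, 69.3, 79.1 and 73.2%. Every hSKP2-KI prostate thus drew a smaller share from Egf than any WT prostate, although Egf was the leading ligand transcript in all 8.

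The share of Hbegf was 3.78% ± 1.22 (SD, n = 4) in WT and 13.4% ± 3.26 in hSKP2-KI prostates, and that of Tgfa was 2.73% ± 0.507 and 12.5% ± 2.63. Btc made up 0.337% ± 0.122 and 1.64% ± 0.888. None of these shares overlapped between genotypes, and all of them have the lower Egf in their denominator. The summed TPM of the 6 ligands was 219 ± 71.9 in WT and 69.0 ± 10.7 in hSKP2-KI prostates (SD, n = 4). Without Egf it was 14.2 ± 1.20 and 18.6 ± 0.904, without overlap on the deposited scale, where 34.0% of all tested genes were higher without overlap. After median-ratio scaling this sum overlapped, at 15.6 ± 1.37 and 17.0 ± 0.930, while that of all 6 ligands was 239 ± 65.4 and 62.7 ± 9.47 and did not overlap.

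**Figure D3:**
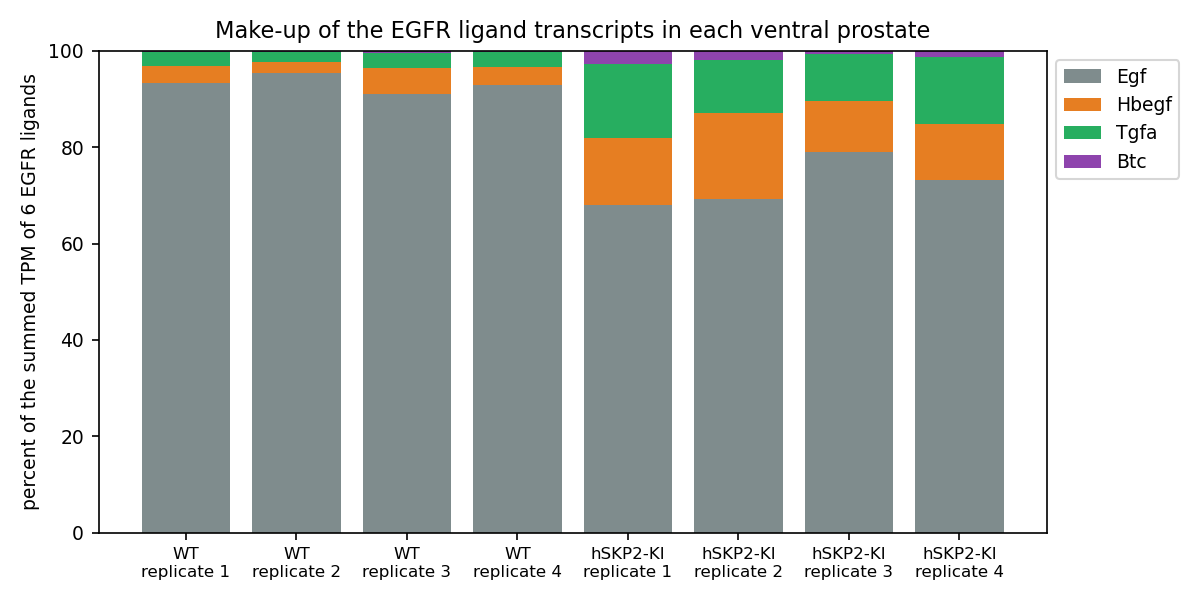
Share of each ligand in the summed TPM of the 6 EGFR ligands (vertical axis, percent) in each ventral prostate; Areg and Ereg are too low to be visible. The Egf part takes 91.1 to 95.3% in WT samples and 67.9 to 79.1% in hSKP2-KI samples.

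Egf transcripts outnumbered Egfr transcripts, per length, by 27.5 ± 6.66 to 1 in WT and by 4.65 ± 0.575 to 1 in hSKP2-KI prostates (SD, n = 4), without overlap. Egf over Tgfa was 35.3 ± 8.66 and 6.02 ± 1.62. The ratio of Tgfa to Egfr, by contrast, was 0.778 ± 0.0727 in WT and 0.814 ± 0.249 in hSKP2-KI prostates and overlapped. Egfr made up 10.8% ± 0.963 of the TPM of the 3 receptors in WT and 14.2% ± 1.93 in hSKP2-KI prostates, Erbb2 55.0% ± 4.03 and 53.1% ± 5.84, and Erbb3 34.2% ± 3.91 and 32.8% ± 4.05. All 3 receptor shares overlapped, and so did the receptor sum, at 68.3 ± 5.72 TPM in WT and 76.4 ± 7.81 in hSKP2-KI prostates, and at 74.7 ± 1.60 and 69.4 ± 6.24 after scaling, where the order of the means was the opposite.

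Around these genes, 66 others of the pathway were examined, of which 60 were tested. On the deposited scale 21 of them, or 35.0%, were called higher and 0 lower, beside 32.7% and 1.23% of all genes, and their median log2 fold change was 0.25 beside 0.23. After median-ratio scaling 2 were called higher (3.33%, beside 6.92% of all genes) and 1 lower (1.67%, beside 4.25%). At an unadjusted p under 0.05 in limma, 30 were higher and 0 lower on the deposited scale, and 8 were higher and 3 lower after scaling. No share of all tested genes at this unadjusted threshold is given here, so these counts cannot be set against a background.

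The remaining family members included Erbb4, the receptor of neuregulins, at 4.33 ± 0.716 TPM in WT and 3.86 ± 0.706 in hSKP2-KI prostates (log2 fold change -0.13, limma adjusted p = 0.447). After median-ratio scaling it had -0.35 (limma adjusted p = 0.0793), and with quantile normalization it was called lower, at -0.46 (limma adjusted p = 0.0304). Nrg2 had 2.83 ± 0.694 and 3.27 ± 0.460 TPM, a log2 fold change of 0.17 that turned to -0.03 after scaling. Nrg1 was under the filter, at 0.445 ± 0.0429 and 0.671 ± 0.112 TPM, without overlap (exact permutation p = 0.0286, the smallest possible, and 0.1 adjusted over 7 genes). This is on the deposited scale, where 34.0% of all tested genes were higher without overlap. Nrg3 was listed at 0 in all 8 samples.

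Of the sheddases and their iRhom cofactors, which govern ligand release, 4 of 5 tested genes rose on the deposited scale and 0 were called after scaling. The shares of all tested genes called higher were 32.7% and 6.92%. At an unadjusted limma p under 0.05, for which no share of all genes is given, 3 were higher after scaling. Adam17, the main sheddase of Tgfa, Areg and Hbegf precursors, went from 8.69 ± 1.28 to 12.2 ± 0.574 TPM (SD, n = 4; log2 fold change 0.46, limma adjusted p = 0.0129). Adam10, a sheddase of the Egf and Btc precursors, went from 24.1 ± 3.12 to 32.4 ± 4.32 TPM (0.41, limma adjusted p = 0.022), and its groups overlapped. Its call was lost without hSKP2-KI replicate 3 or 4 or WT replicate 1 or 3, with limma adjusted p-values of 0.0542, 0.0528, 0.057 and 0.0514. Adam9 rose by 0.58 and the iRhom gene Rhbdf1 by 0.44 on the log2 scale. After scaling the median of the list went from 0.44 to 0.18.

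Of 10 receptor inhibitors and ubiquitin ligases, 3 rose, beside 32.7% of all tested genes called higher. Lrig1, a membrane protein that promotes the turnover of ERBB receptors, went from 5.84 ± 0.703 to 8.70 ± 0.525 TPM (SD, n = 4; log2 fold change 0.51, limma adjusted p = 0.00647) and was also called after scaling, at 0.27 (limma adjusted p = 0.0472). This call was lost with quantile normalization, at 0.21 (limma adjusted p = 0.101), and without the 20 most abundant genes, at 0.31 (limma adjusted p = 0.0651). Cblc, a ubiquitin ligase of the CBL family, rose by 0.49 and Socs5 by 0.36, and both calls were lost after scaling, while Lrig2 had 0.32 (limma adjusted p = 0.0557).

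The lists of intracellular components had medians close to that of all genes. Their counts below stand beside 32.7% of all tested genes called higher on the deposited scale. Among 10 adaptors and exchange factors, Grb2, Shc1 and Nck1 rose, by 0.27, 0.34 and 0.31 on the log2 scale, and the list's median was 0.22. Shc1 was called in 1 and Grb2 in 3 of the 8 fits that left out 1 mouse, and the number called higher was 2 without hSKP2-KI replicate 1 or 3 or WT replicate 4, 1 without hSKP2-KI replicate 2 or WT replicate 1 or 3, and 0 without hSKP2-KI replicate 4, where Nck1 had a limma adjusted p of 0.0577. Without a filter Shc1 and Grb2 were not called (limma adjusted p = 0.0836 and 0.052). Ptpn11, a phosphatase that acts downstream of the receptors, had 0.21 (limma adjusted p = 0.0997) and -0.05 after scaling. Among 16 genes of the RAS-MAPK and PI3K chain 6 rose, including Pik3r1, a regulatory subunit of PI3 kinase, by 0.49, Map2k2 by 0.29 and Mapk3, which encodes ERK1, by 0.31. None of these calls held after scaling, when the median of the chain was -0.036. The number called was 2 without hSKP2-KI replicate 2 or 4 or WT replicate 3 and 3 without hSKP2-KI replicate 1 or WT replicate 1, and Mapk3 was not called in these 5 fits.

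Transcripts that ERK signalling is known to induce had the highest median of the 7 pathway lists, 0.55, which was 0.30 after scaling. Of 8 tested, 3 were called higher and 0 lower, beside 32.7% and 1.23% of all tested genes. After scaling 1 was called higher and 1 lower, beside 6.92% and 4.25% of all tested genes. Phlda1 was at 142 ± 35.1 TPM in WT and 251 ± 50.5 in hSKP2-KI prostates (SD, n = 4; log2 fold change 0.82, limma adjusted p = 0.00685; 0.0753 after scaling). Etv5, a transcription factor of the PEA3 group, went from 1.66 ± 0.232 to 3.22 ± 0.663 TPM (0.66, limma adjusted p = 0.0076) and was also called after scaling, at 0.47 (limma adjusted p = 0.0345), but not with quantile normalization, at 0.33 (limma adjusted p = 0.0784). Ier3 rose by 0.48. Etv4, of the same list, was not called, at -0.08 and, after scaling, -0.30 (limma adjusted p = 0.767 and 0.337).

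Fos, an immediate early gene, had 1.53, 1.56, 0.698 and 3.17 TPM in WT and 6.90, 11.0, 0.934 and 3.76 TPM in hSKP2-KI replicates 1 to 4. Replicates 1 and 2 of hSKP2-KI stood above all others and replicate 3 lay within the WT range. The log2 fold change was 1.06 (limma adjusted p = 0.0984), or 0.88 after scaling (limma adjusted p = 0.276). It was 1.56 without hSKP2-KI replicate 3 (limma adjusted p = 0.0114) and 0.68 without hSKP2-KI replicate 2 (limma adjusted p = 0.232). Myc, a growth-promoting transcription factor named here after its values were seen, had 32.1 ± 6.08 and 30.3 ± 1.42 TPM (SD, n = 4; -0.07, limma adjusted p = 0.643) and was called lower after scaling, at -0.33 (limma adjusted p = 0.0445), but not with quantile normalization (limma adjusted p = 0.0609) or without the 20 most abundant genes (0.0835). Without WT replicate 2 its deposited-scale value was 0.054. Of the 9 feedback regulators of ERK, 2 were called higher, beside 32.7% of all tested genes. These were Spred1, at 0.59, and Spry2, at 0.45, both not called after scaling. Spry2 was also not called without hSKP2-KI replicate 1, 2 or 4 or WT replicate 1 or 3, nor without a filter (limma adjusted p = 0.0801). Dusp4 and Spred3 had 0.43 and 0.35 (limma adjusted p = 0.0588 and 0.0714).

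**Figure D4:**
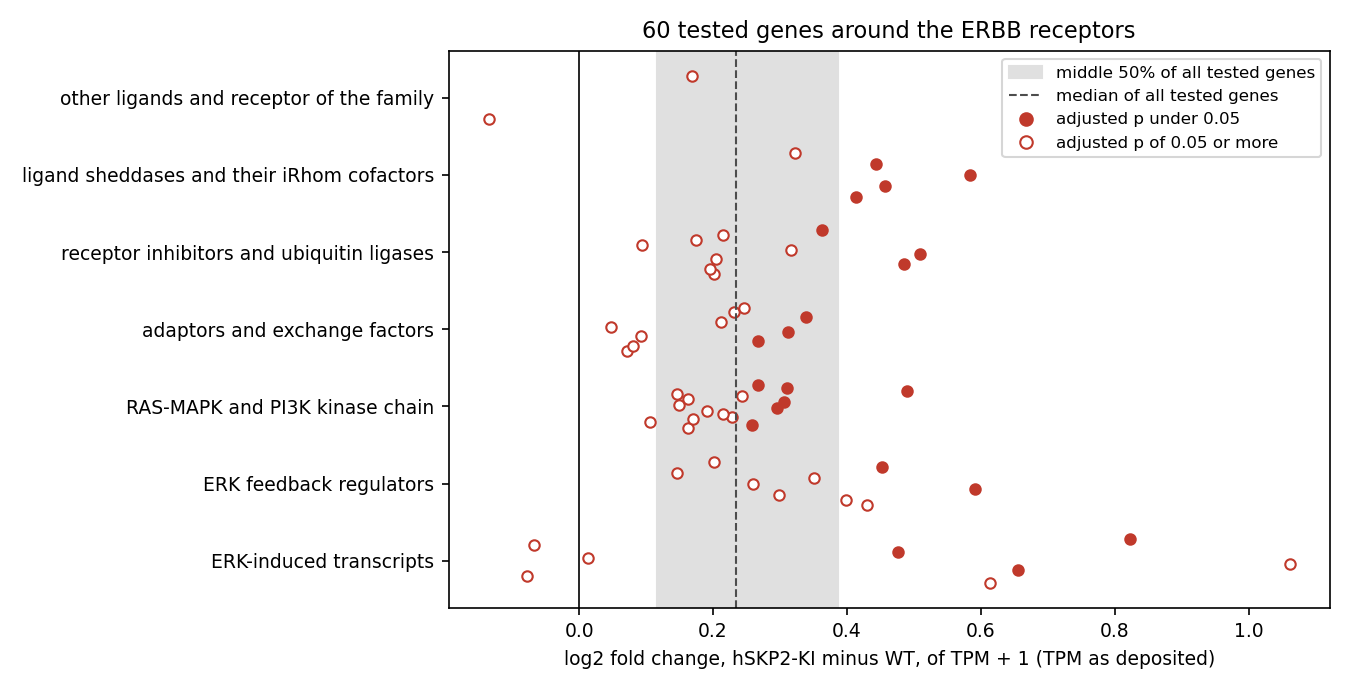
Log2 fold change of TPM + 1 as deposited, hSKP2-KI minus WT (horizontal axis), of 60 tested pathway genes by list; each point is a gene, filled where the limma adjusted p is under 0.05. The band holds the middle 50% of all tested genes, 0.12 to 0.39, around their median of 0.23 (dashed), and no point left of 0 is filled.

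Markers of other cell types were counted by list as well. Over all tested genes, 32.7% were called higher and 1.23% lower as deposited, and 6.92% and 4.25% after scaling. The marker counts here and in the next paragraph stand beside these shares. As deposited, 10 of 10 fibroblast, 8 of 8 smooth muscle, 6 of 8 endothelial and 6 of 8 macrophage markers were called higher. After scaling 4, 4, 3 and 0 were called higher, in the same order. The medians of these lists were then 0.63, 0.45, 0.41 and 0.58, beside -0.01 over all tested genes. At an unadjusted limma p under 0.05 after scaling, 10, 8, 5 and 5 were higher. No share of all genes is given for that threshold. On the deposited scale fibroblast markers summed to 912 to 1623 TPM in hSKP2-KI against 496 to 708 in WT prostates. Smooth muscle markers summed to 3089 to 4722 against 2083 to 2626 TPM. Endothelial sums were 53.3 to 87.3 against 33.0 to 45.9 TPM, and macrophage sums were 214 to 436 against 94.8 to 197 TPM. Epithelial markers were called higher in 4 of 10 genes and in 0 after scaling, with sums of 2762 to 3437 against 2445 to 2661 TPM as deposited and 2457 to 3221 against 2592 to 3076 after scaling, and list medians of 0.17 and -0.096. Basal markers were called higher in 3 of 6 genes and in 0 after scaling.

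Within the luminal epithelium, 2 of 6 ventral secretory markers were called lower and 1 higher on the deposited scale, and 1 and 0 after scaling, that 1 being Pbsn, which the knock-in itself alters. They had sums of 342265 to 372865 against 431260 to 478538 TPM. Of 8 proximal luminal markers 7 were called higher and 1, Clu, lower (6 and 1 after scaling). All 3 tested of 6 urothelial markers were called higher, and 2 after scaling. Of the untested ones, Upk3a was at 12.5 TPM in hSKP2-KI replicate 4 and at most 0.312 in any other sample. Krt20 was at 2.78 TPM in that replicate and at most 0.550 elsewhere. Krt13 was at 0.128 to 0.336 TPM in hSKP2-KI mice, lowest in that replicate, and at most 0.0496 in WT mice. Its groups did not overlap, and 34.0% of all tested genes were higher without overlap. Leukocyte and Schwann cell lists had 1 higher gene each, of 6 and 5 tested, and 0 after scaling. Of 8 proliferation markers 4 were tested, and 0 of these were called, also at an unadjusted limma p under 0.05. Mki67, Ccnb1, Birc5 and Bub1 were under the filter and were not tested. Seminal vesicle markers summed to at most 0.656 TPM in any sample, with Svs2, Svs3a and Pate4 listed at 0 in all. The part of these markers in the differences of Egf, Tgfa, Egfr and the pathway genes was not tested.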

How the data were processed

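Poly(A) RNA of the ventral prostate was sequenced from 4 hSKP2-KI and 4 WT mice. The authors trimmed the reads, mapped them in CLC software and deposited 1 table of TPM. The genome builds mm10 and GRCm38 are named in the submitters' processing notes, and the software version, annotation and counting options are not given in the sources used here. It held 0 columns of other samples. Since read counts cannot be had from TPM, depth is unknown. Samples were grouped by the genotype in their labels, which give no batch.

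The deposited TPM were transformed to log2(TPM + 1) and modelled in limma 3.58.1 (R 4.3.3), using a mean-variance trend and a threshold of 0.05 on the Benjamini-Hochberg adjusted p. The added 1 makes fold changes of low genes smaller than the ratio of their TPM. Genes under the filter were compared with two-sided exact permutation tests over the 70 assignments of 4 of 8 samples. The procedure was tested on simulated data with independent noise and changes in both directions. These data lacked the shift of all genes seen here, so they do not bear on calls that depend on the scaling. Shares and ratios of genes are descriptions without a test. Python 3.11.15 and matplotlib 3.10.9 were used for figures.

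The members and lists were chosen with earlier results of these data known. Named were all 10 members, up to 4 tested genes of each pathway list with the smallest p-values, all other family members, and the 5 genes with the profile closest to Egf and to Tgfa, the tested member with the largest positive log2 fold change. Some genes within this rule are not reported here. Marker genes are given as list counts and ranges. Myc, Etv4, Clu, Upk3a, Krt20 and Krt13 were named in addition, after their values were seen, as were the proliferation markers under the filter. Positions are those of the GRCm38 annotation, to which all 10 members matched by identifier. Alternatives were a pseudocount of 0.1, no filter, a mean TPM of 5 or more as filter, quantile normalization, median-ratio scaling, a replicate block, leaving out each sample, and TPM recomputed after removal of the 20 genes with the highest TPM.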

Additional observations from a re-analysis of the deposited data

Results flagged for a closer look

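A sample far from the other 3 of its genotype was found in 7 of 77 gene and genotype groups, and chance gives about 1 in 20. Of the members, Erbb3 was at 17.3 TPM in WT replicate 1, while the other WT mice had 24.8 to 25.9 TPM. Ereg was at 0.0208 TPM in WT replicate 3 and listed at 0 in the others. Of the pathway genes, Dusp4 was at 2.11 TPM in hSKP2-KI replicate 4 against 1.24 to 1.36, and Nrg1 was at 0.505 TPM in hSKP2-KI replicate 1 against 0.708 to 0.748. Myc was at 41.2 TPM in WT replicate 2 against 28.1 to 29.7. Phlda1 was at 195 TPM in WT replicate 4 against 123 to 128, and Socs5 was at 6.19 TPM in WT replicate 1 against 7.74 to 7.94.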

How the results depend on the processing

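Egf was called lower under each of 25 alternatives, with log2 fold changes from -2.38 to -1.76 and limma adjusted p-values up to 0.00675. The calls of Tgfa and Egfr depended on the scaling. Median-ratio scaling called 905 genes higher and 556 lower, none of the members higher (0) and 2 pathway genes higher and 1 lower, and gave log2 fold changes of 0.26 for Tgfa, 0.25 for Egfr, -0.041 for Hbegf, -0.066 for Nrg4, -0.16 for Erbb2, -0.16 for Erbb3, -0.034 for Nrg2 and -0.052 for Ptpn11, and a difference of -0.00032 for Epgn. Quantile normalization called 709 genes higher and 608 lower, 0 members higher and 1 pathway gene in each direction, with 0.19 for Tgfa, 0.21 for Egfr, -0.080 for Hbegf, -0.21 for Nrg4, -0.13 for Erbb2, -0.15 for Erbb3, -0.16 for Nrg2 and -0.014 for Ptpn11. TPM without the 20 most abundant genes gave 887 higher and 434 lower, 0 members and 2 pathway genes higher, with 0.30 for Tgfa, 0.28 for Egfr, -0.022 for Hbegf, -0.072 for Nrg4, -0.14 for Erbb2, -0.14 for Erbb3, -0.018 for Nrg2 and -0.032 for Ptpn11. Median-ratio scaling and quantile normalization remove the shift of all genes by construction. Recomputing TPM without the 20 most abundant genes does not force this, and the median difference left there is not given here. Without a filter on low values, which tests more genes, 1 member was called higher and Egfr, at 0.49, was not called.

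Leaving out each mouse in turn gave 2839 to 4548 genes higher, the lowest without WT replicate 1, 1 to 2 members higher and 12 to 25 pathway genes higher, the lowest without hSKP2-KI replicate 4, with 13 without WT replicate 3. Ranges of the log2 values were 0.41 to 0.62 for Egfr, -0.037 to 0.21 for Erbb3, -0.12 to 0.21 for Nrg4, -0.0099 to 0 for Ereg, -0.010 to 0.057 for Epgn, 0 to 0.027 for Fosl1, -0.12 to 0.054 for Myc, -0.0074 to 0.19 for Egr2 and 0.42 to 0.59 for Tgfa. Both arms then hold at least 3 mice.

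The labels do not say whether mice were paired by replicate number. After subtracting genotype means, same-numbered samples correlated at 0.22, -0.11, 0.17 and -0.01 across genes. Of 8 samples, 4 correlated best with their own number, and these values cannot decide whether mice were paired. With a replicate block 4941 genes were called higher and 187 lower, and 28 pathway genes higher. The block changed no call of a member, Fos was called with it (limma adjusted p = 0.0465), and Egf stayed at -1.98 (limma adjusted p = 0.0027). After seeing the data, median-ratio scaling was also combined with a pseudocount of 0.1, which gave 0 members higher, 0.29 for Tgfa and 0.27 for Egfr, with the replicate block, which gave 0, 0.26 and 0.25, and with leaving out each mouse, which gave 0 members higher in each case, 0.19 to 0.36 for Tgfa (0.23 without WT replicate 3 or 4) and 0.17 to 0.36 for Egfr (0.18 without hSKP2-KI replicate 4 and 0.20 without WT replicate 4). TPM gives no depth, so no counting error can be given, and 4 mice in each group limit the precision.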
